A study of Mus musculus with 12 samples.

Results

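The subunits of the oxidative phosphorylation system were followed across bone marrow-derived macrophages (BMDMs) of 2 genotypes, with and without lipopolysaccharide (LPS), the bacterial cell wall component that activates macrophages. Members were all genes whose symbol belongs to the subunit families Nduf, Sdh, Uqcr, Cox4 to Cox8 and Atp5. The array measured 81 such genes among the 18193 genes tested, with 164 probe sets, and the brightest probe set of each gene was used. They fall into 33 genes of complex I, 4 of complex II, 8 of complex III, 19 of complex IV (with Ndufa4 and Ndufa4l2, which belong to it) and 17 of complex V.

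Complexes I and II pass electrons from NADH and succinate to ubiquinone, complex III passes them on to cytochrome c, and complex IV passes them to oxygen. The proton gradient built by complexes I, III and IV drives ATP synthesis by complex V. Macrophages activated by LPS are known for a shift of energy metabolism from respiration towards glycolysis, and several complex IV subunits exist as isoforms that are known from muscle, testis, lung or hypoxic tissue.

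The control mice carried floxed alleles of Trsp, the gene of the selenocysteine tRNA that every selenoprotein requires, and no Cre (Trspfl/fl-LysM-Cre-/-). The ΔTrspM mice carried the same floxed alleles and Cre under the lysozyme M promoter (Trspfl/fl-LysM-Cre+/-), which is active in macrophages and in other myeloid cells. All donors were C57BL/6 females, and all cells were grown with M-CSF for 7 days before harvest. There were 3 arrays (Affymetrix GeneChip, mouse genome) for each of control, ΔTrspM, LPS-stimulated control and LPS-stimulated ΔTrspM cells, and LPS was given for 4 h at a dose that is not given for these arrays. The labels call the 3 arrays of a group biological replicates without saying whether the mice were separate, so p-values reflect only how far these samples lie apart, possibly for technical reasons.

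Promoters are shown for the 4 subunits that illustrate the sequence features discussed with the LPS results: Ndufb1, a subunit that rose with LPS, and Ndufa8, Ndufs7 and Sdhb, which fell and each hold a core motif of a factor known to regulate respiratory genes. Each sequence runs 5′ to 3′ on the gene's strand, from 250 bases before to 50 after the annotated start (RefSeq, GRCm38.p6). Capitals mark the letters searched on both strands: GCGCATGCG (NRF1 core), CCGGAAG (ETS/GABP core), AAGATGGCG (YY1 core), ACGTG (hypoxia response core) and TGACGTCA (cAMP response element). ACGTG and its complement share bases in CACGTG, which none of the 4 sequences shown holds. Ndufb1 is at chr12:101975689-101975988, minus strand, Ndufa8 at chr2:36049289-36049588, minus strand, Ndufs7 at chr10:80249199-80249498, plus strand and Sdhb at chr4:140961021-140961320, plus strand.
Ndufb1: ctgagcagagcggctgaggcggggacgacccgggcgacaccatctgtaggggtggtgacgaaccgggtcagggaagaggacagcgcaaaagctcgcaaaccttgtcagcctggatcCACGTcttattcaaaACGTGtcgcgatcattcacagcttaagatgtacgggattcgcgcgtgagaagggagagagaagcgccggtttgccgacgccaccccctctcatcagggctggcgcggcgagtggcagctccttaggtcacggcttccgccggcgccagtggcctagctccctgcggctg
Ndufa8: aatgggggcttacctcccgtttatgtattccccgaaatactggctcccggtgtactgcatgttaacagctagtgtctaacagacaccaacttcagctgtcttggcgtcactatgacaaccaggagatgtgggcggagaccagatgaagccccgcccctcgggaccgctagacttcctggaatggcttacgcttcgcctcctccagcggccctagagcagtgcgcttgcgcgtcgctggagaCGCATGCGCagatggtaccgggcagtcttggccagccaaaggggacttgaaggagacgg
Ndufs7: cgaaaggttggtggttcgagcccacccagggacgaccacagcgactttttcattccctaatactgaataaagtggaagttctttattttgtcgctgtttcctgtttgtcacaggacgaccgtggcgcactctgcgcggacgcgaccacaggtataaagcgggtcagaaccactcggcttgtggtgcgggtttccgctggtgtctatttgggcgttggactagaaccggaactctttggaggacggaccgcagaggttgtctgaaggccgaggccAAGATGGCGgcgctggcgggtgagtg
Sdhb: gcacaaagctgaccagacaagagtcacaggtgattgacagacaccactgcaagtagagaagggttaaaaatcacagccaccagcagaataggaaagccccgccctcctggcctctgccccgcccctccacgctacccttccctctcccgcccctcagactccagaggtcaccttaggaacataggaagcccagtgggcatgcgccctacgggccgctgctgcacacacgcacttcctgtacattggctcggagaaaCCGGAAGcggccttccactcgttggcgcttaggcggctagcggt
Ndufb1 holds ACGTG once on each strand and none of the other 4 motifs. Ndufa8 holds the NRF1 core, Ndufs7 the YY1 core and Sdhb the ETS/GABP core.

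Of the 81 subunits, 66 were matched to 71 promoters. The NRF1 core was in 9.86% of these against 1.75% of all 32851 promoters, the ETS/GABP core in 23.9% against 8.86%, and the YY1 core in 8.45% against 1.40%. ACGTG was in 26.8% against 19.6%, and the cAMP response element in 4.23% against 1.79%. Among the 8 subunits with a promoter that fell with LPS, the NRF1, ETS/GABP and YY1 cores were in 1 each. ACGTG was also in 1 of these 8, Atp5g1, whose promoter is not shown, and the cAMP response element was in 0. A match is a description of the letters in this window and not a binding site.

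Values are log2(signal + 16) after quantile normalization, each change is a difference on this log2 scale, and levels are compared only within one gene. The arrays differed in brightness before scaling. Their mean signal was 492 to 861 units on 11 arrays and 199.7 on the array of LPS-stimulated ΔTrspM replicate 2, where 47.7% of probe sets lay under 16 units against 16.1% to 28.8% on the others. Of 14 measured genes that macrophages are known to induce after LPS, 13 rose over both genotypes (median log2 change 4.48, with Il6 at 7.80, Il12b at 7.19 and Ptgs2 at 4.71). Of the macrophage markers, 8 of 9 were measured, and their summed signal was 62899 to 74341 in control cells, 63327 to 66856 in ΔTrspM cells, 64922 to 70107 in LPS-stimulated control cells and 64774 to 71053 in LPS-stimulated ΔTrspM cells, and 1 of them, Cd14, rose with LPS (0.69 ± 0.15). The 9 stromal markers summed to 514 to 7383, 940 to 8271, 4262 to 4948 and 2997 to 9404 units in the same order, 2 of them rose with LPS, and their part in the results was not tested. The 5 measured neutrophil and precursor markers summed to 4866 to 9408, 3706 to 7786, 5750 to 13003 and 5934 to 13681 units, and none passed (3 with the replicate block described below). The 3 endothelial markers summed to 137 to 179, 110 to 136, 229 to 296 and 188 to 603 units in the same order, higher after LPS without overlap in both genotypes, 1 of them (Kdr) rose, and Pecam1 lay under 16 units on all arrays. In bulk RNA, fewer cells of one type and less of an RNA per cell cannot be told apart.

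LPS was followed by small and widespread shifts of the subunits towards lower values, and by large rises of 2 of them. Averaged over both genotypes, the log2 change was below 0 for 70 of 81 subunits, with a median of -0.29 against -0.02 over all genes. The bright subunits moved together from array to array, as described below, so these signs are not independent. In the test, 10 subunits fell, or 12.3%, against 16.5% of all genes, so the share of subunits called was not above the background. Ndufb1 and Cox8c rose, where 11.8% of all genes were called higher. The falls were between 0.36 and 0.75 on the log2 scale, and the typical SE of a subunit's change was 0.16.

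Replicate numbers paired the arrays, and pairing changed the count. When the replicate number entered the fit as a block, the typical SE was 0.12 and 30 of 81 subunits fell, or 37.0%, against 20.9% of all genes, while the same 2 rose (13.9% of all genes). The 30 changes ran from -0.75 to -0.30. In the blocked fit, 23 fell without the LPS-stimulated ΔTrspM array of replicate 2, and 5 without replicate 2 of all groups. Both fits hold fewer arrays, these counts have no share of all genes beside them, and replicates 1 and 3 were not left out of all groups. The part of replicate 2 in the count of 30 was therefore not tested. In fits without pairing, leaving out 1 array gave 5 to 14 falls, with 5 without unstimulated ΔTrspM replicate 1 and 6 without unstimulated ΔTrspM replicate 3 or LPS-stimulated control replicate 2. Without pairing, 26 subunits were lower and 3 higher at an unadjusted p under 0.05. These 2 counts have no share of all genes beside them and are not read as a result about the subunits. Replicate by replicate, 38 of 81 subunits (46.9%) were lower in all 6 pairs of arrays, against 22.1% of all genes, and 3 (Ndufb1, Cox8c and Cox6a2) were higher in all 6, against 13.5%. Of 38 subunits with several probe sets at a mean log2 signal of 9 or above, 34 had all of them on one side of 0, and over all probe sets, dim ones included, 32 of 48 subunits did.

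The size of the shift depended on brightness and on scaling. Among genes whose mean log2 signal was 9 or above, 94.4% of the 71 subunits and 63.1% of the 5960 other genes had a change below 0, with medians of -0.31 and -0.18. Averaged over both genotypes, the median of the subunits stayed below that of all genes under every scaling. It was -0.17 against 0.05 when arrays were centred on their medians, -0.67 against -0.45 without scaling, and -0.09 against -0.02 when arrays were divided by a trimmed mean. Under these scalings 1, 2 and 2 subunits fell, in place of 10.

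**Figure D1:**
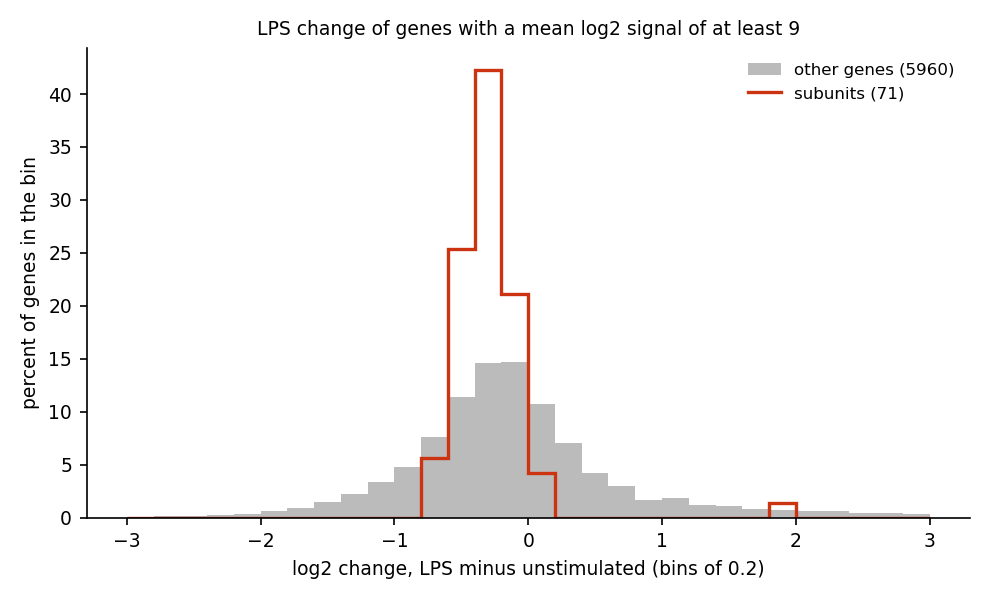
Distribution of the log2 change with LPS (x axis, in bins of 0.2; changes beyond 3 in either direction are not drawn) for genes whose mean log2 signal was 9 or above, as a percentage of each set (y axis). The 71 subunits are gathered between -0.8 and 0.2 except for Ndufb1 at 1.83, whereas the 5960 other genes spread to both sides.

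The median of the 81 subunits on each array shows the shift without a fit. It was 12.30, 12.08 and 12.45 in control cells of replicates 1, 2 and 3, and 11.91, 11.55 and 12.16 after LPS. In ΔTrspM cells it was 12.36, 12.17 and 12.48, and 12.30, 11.60 and 12.19 after LPS. The LPS array was the lower one in each of the 6 pairs, by 0.06 (ΔTrspM replicate 1) to 0.57 (ΔTrspM replicate 2), and replicate 2 was the lowest array of each group. In replicate 2, brightness fell with these values. Before scaling, its mean signal was 733.8 units in control cells and 492.1 after LPS, and 575.0 in ΔTrspM cells and 199.7 after LPS. In replicate 1 the mean signal was 770.6 units in control cells and 860.9 after LPS, and 721.3 in ΔTrspM cells and 492.0 after LPS. In control cells of replicate 1 the median thus fell while brightness rose. The part of brightness in the result was not tested. The log2 ratio of the 3′ to the 5′ Gapdh control probe sets, a sign of RNA quality, was -0.56 on the LPS-stimulated ΔTrspM array of replicate 2 and -0.27 to -0.07 on the other 11. For actin the ratio was 0.25 on that array and -0.18 to 0.31 on the other 11. Without the LPS-stimulated control array of replicate 2 the median change in control cells was -0.19 in place of -0.34, and without the LPS-stimulated ΔTrspM array of replicate 2 that in ΔTrspM cells was -0.11 in place of -0.27.

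**Figure D2:**
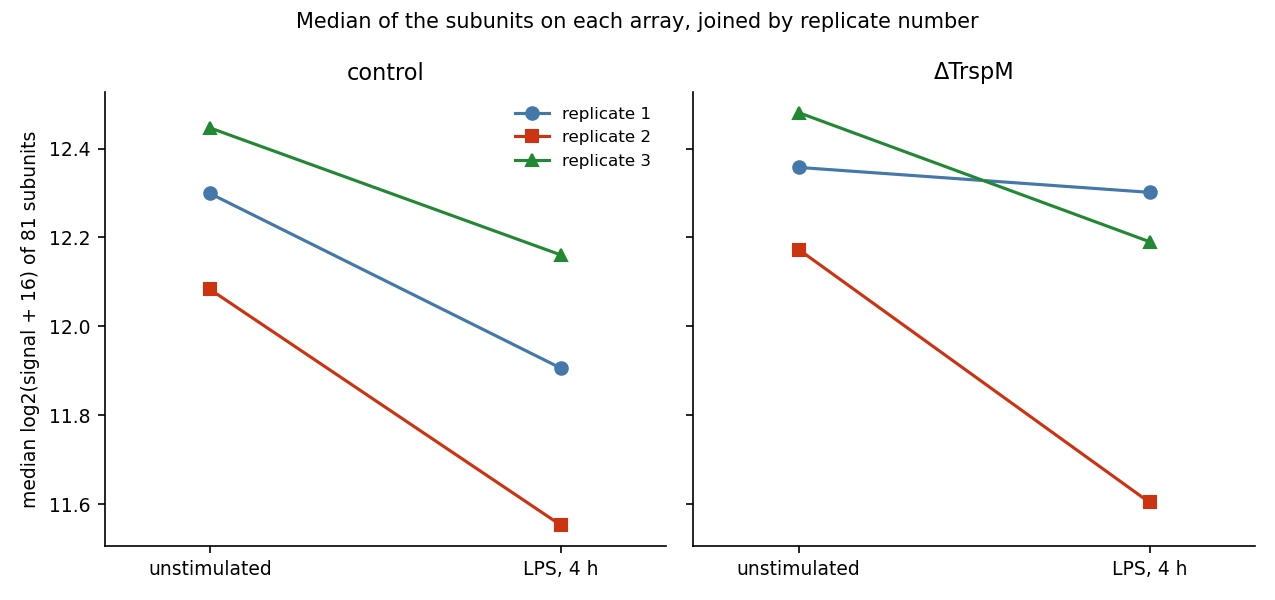
Median log2(signal + 16) of the 81 subunits on each of the 12 arrays (y axis), unstimulated and after LPS (x axis), with lines joining arrays of one replicate number. Each line goes down, from 12.36 to 12.30 in the flattest pair and from 12.17 to 11.60 in the steepest.

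In complex I the median change with LPS was -0.38 and 31 of 33 subunits were below 0. Of these 33, 7 fell (21.2%, near the 16.5% of all genes) and 1 rose, and 18 fell with the replicate block. The 3 called among the catalytic core subunits, which carry the iron-sulfur clusters on the path of the electrons, were Ndufv2, Ndufs1 and Ndufs7.

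Ndufv2 was at 12.66, 12.44 and 12.73 in control cells, 12.69, 12.40 and 12.70 in ΔTrspM cells, 11.90, 11.35 and 12.16 in LPS-stimulated control cells, and 12.09, 11.40 and 12.22 in LPS-stimulated ΔTrspM cells. Every LPS array was below every unstimulated array. It fell by 0.75 ± 0.19 (SE) over both genotypes (limma, adjusted p = 0.0116), and the other 2 probe sets of the gene had changes of -0.90 and -0.73. Ndufs1, the largest core subunit, was at 10.84 to 10.95 on the 6 unstimulated arrays and at 10.36 to 10.64 on the 6 LPS arrays, without overlap, and fell by 0.38 ± 0.11 (adjusted p = 0.0243). Ndufs7, which holds the cluster next to ubiquinone, was at 11.69, 11.66 and 11.72 in control cells and at 11.12, 10.71 and 11.21 after LPS. In ΔTrspM cells it was at 11.69, 11.56 and 11.79, and at 11.65, 10.94 and 11.29 after LPS, so that these groups overlapped. It fell by 0.53 ± 0.15 over both genotypes (adjusted p = 0.0224), and its adjusted p was 0.0501 to 0.0523 without unstimulated ΔTrspM replicate 1 or 3 or LPS-stimulated control replicate 2. The core subunit Ndufs8 had a change of similar size, -0.56 ± 0.22, which passed with the replicate block (adjusted p = 0.0168) and not without it (0.0842). It passed in 4 of 12 alternatives and in 1 of 12 fits that leave out 1 array. In a fit of all probe sets, 2 of its other probe sets passed lower, at -1.03 (adjusted p = 0.00714) and -0.64 (0.0425), and a dimmer one passed higher, at 0.78 (0.0195), so the probe sets of this gene disagree.

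The other 4 that fell are accessory subunits, which surround the core. Ndufa8 was at 12.30, 12.23 and 12.29 in control cells and at 11.71, 11.11 and 11.58 after LPS, and at 12.27, 12.24 and 12.37 in ΔTrspM cells and at 12.08, 11.16 and 11.84 after LPS. The unstimulated arrays lay close together, and all LPS arrays were lower and wider apart. It fell by 0.70 ± 0.17 (adjusted p = 0.011). Ndufb9 was at 12.59 to 12.83 on the unstimulated arrays and at 11.62 to 12.47 on the LPS arrays, and fell by 0.60 ± 0.14 (adjusted p = 0.00891). Its second bright probe set had a change of -0.55. Ndufb3 fell by 0.44 ± 0.14 (adjusted p = 0.0404), and its LPS and unstimulated arrays overlapped in ΔTrspM cells. Ndufc2 fell by 0.36 ± 0.11 (adjusted p = 0.036), but the call held in only 3 of the 12 fits that leave out 1 array (without control replicate 2 unstimulated, control replicate 3 with LPS or ΔTrspM replicate 1 with LPS), and the adjusted p was 0.0561 to 0.0788 in the rest. Its other 2 bright probe sets had changes of -0.52 and -0.39, and a dim one had a change of 0.53.

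**Figure D3:**
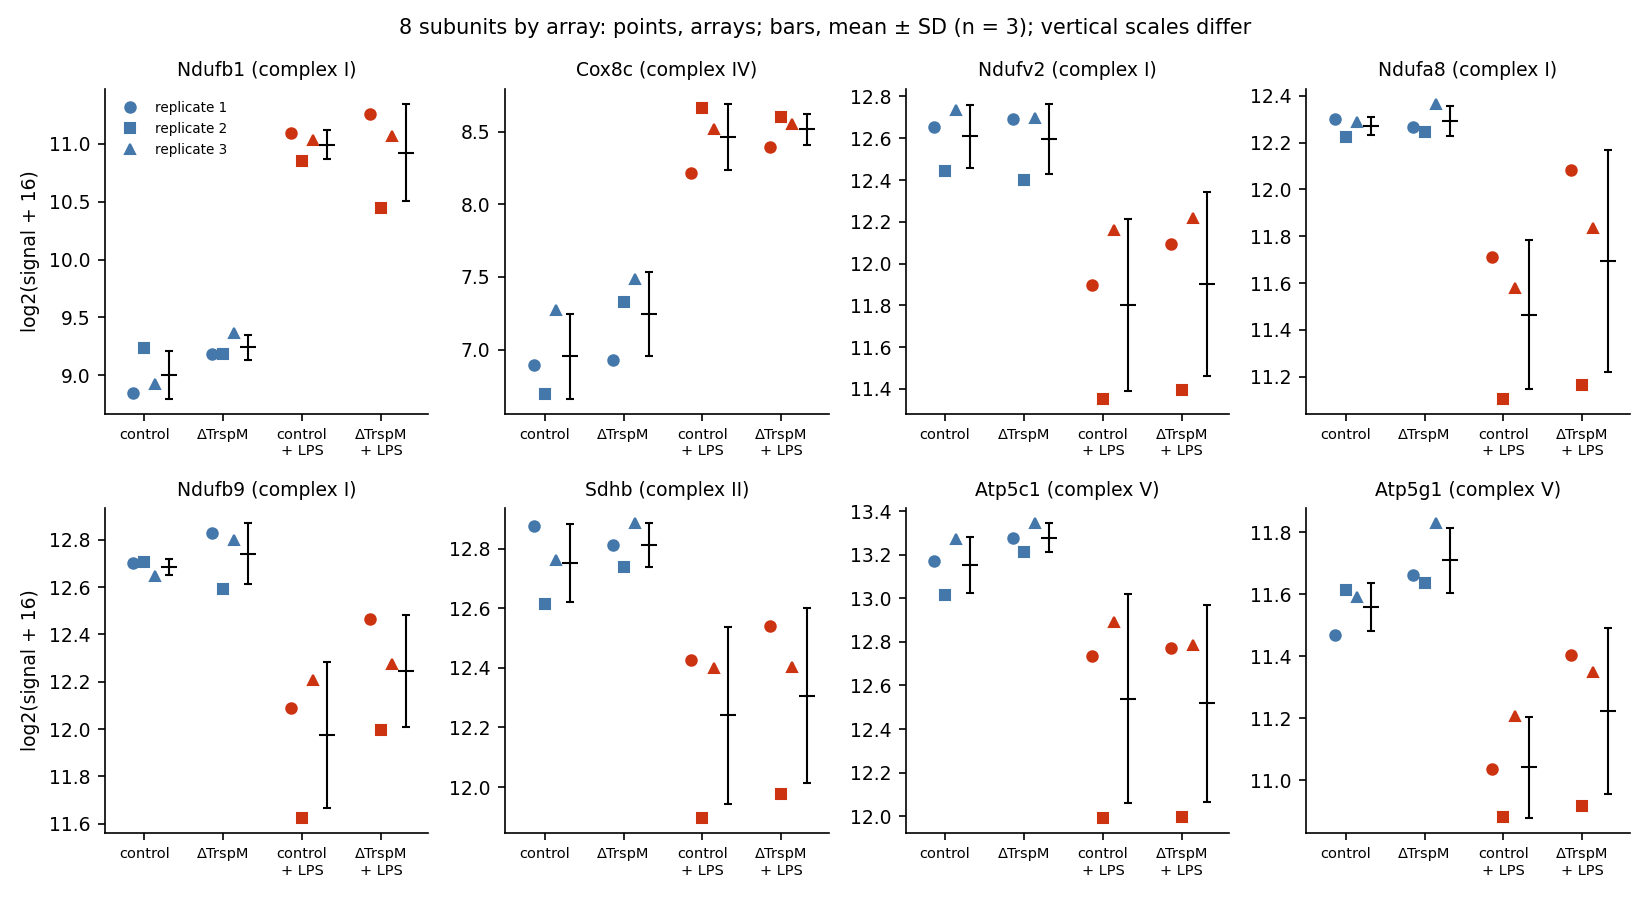
Log2(signal + 16) of 8 subunits (y axes, with different scales) on each array of the 4 groups (x axis), with symbols for the replicate number, blue for unstimulated and red for LPS, and black bars for mean ± SD (n = 3). Ndufb1 and Cox8c rise with LPS, and the other 6 fall, with replicate 2 the lowest LPS array of each in both genotypes.

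Ndufb1, an accessory subunit of the membrane arm, went the other way. Its log2 value was 8.85, 9.24 and 8.92 in control cells and 9.18, 9.18 and 9.37 in ΔTrspM cells. After LPS it was 11.09, 10.85 and 11.03 in control cells and 11.25, 10.45 and 11.07 in ΔTrspM cells. All 6 LPS arrays lay above all 6 unstimulated ones. It rose by 1.83 ± 0.16 over both genotypes (adjusted p = 1.2e-05), by 1.99 ± 0.23 in control and 1.68 ± 0.23 in ΔTrspM cells, and the difference between these 2 changes did not pass the test ( -0.31 ± 0.32, unadjusted p = 0.356). The call held in all 12 fits that leave out 1 array and with arrays centred on their medians or divided by a trimmed mean, and was lost without scaling (1.09, adjusted p = 0.0679). One probe set represents the gene. In the annotation Ndufb1 lies head to head with Cpsf2, a subunit of the pre-mRNA cleavage complex, with 20 bases between them, and Cpsf2 had a change of 0.57 ± 0.23 that passed with the replicate block (adjusted p = 0.00608) and not without it (0.0931).

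Complex II, the succinate dehydrogenase, also belongs to the citric acid cycle. With the probe set used, each of its 4 subunits was lower in all 6 pairs. A second bright probe set had a change of 0.16 for Sdhd, 0.04 for Sdhc and -0.28 for Sdha, so the probe sets disagree for Sdhd and Sdhc. Sdhb, the iron-sulfur subunit, was at 12.88, 12.62 and 12.76 in control cells and 12.43, 11.90 and 12.40 after LPS. In ΔTrspM cells it was at 12.81, 12.74 and 12.89, and at 12.54, 11.98 and 12.40 after LPS. No LPS array reached the lowest unstimulated one, and it fell by 0.51 ± 0.15 (adjusted p = 0.0257). Without 1 of 6 arrays in turn (replicates 1 and 3 of unstimulated control and of unstimulated ΔTrspM cells, and replicate 2 of both LPS groups) its adjusted p was 0.0504 to 0.0629. The membrane anchor Sdhd and the flavoprotein Sdha had changes of -0.37 ± 0.13 and -0.33 ± 0.16 and passed with the replicate block (adjusted p = 0.0367 and 0.0401) and not without it (0.0525 and 0.147). Of 12 alternatives, Sdhd passed in 6 and Sdha in 1. The other anchor, Sdhc, had a change of -0.30 ± 0.13 and did not pass with or without it (adjusted p = 0.0609 and 0.105), but passed in 3 of the 12 alternatives, with a lowest adjusted p of 0.0183.

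In complex III all 8 subunits were below 0 (median -0.25) and none passed with the probe set used. In a fit of all probe sets, a second bright probe set of Uqcrb passed lower, at -0.38 (adjusted p = 0.0344). A dim one of Uqcrq passed higher, at 0.81 (0.00895). With the replicate block 3 small subunits fell: Uqcr11, with a change of -0.55 ± 0.14 in that fit (adjusted p = 0.0149), Uqcr10 at -0.36 ± 0.12 (0.0387) and Uqcrb at -0.30 ± 0.10 (0.0464). Uqcrb was at 13.81 to 14.18 on unstimulated and 13.48 to 13.75 on LPS arrays, but its change was 0.07 with centred arrays and 0.20 with a trimmed mean. The catalytic Rieske protein gene Uqcrfs1 had a change of -0.01 ± 0.15.

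Complex IV had a median change of -0.09, with 12 of 19 subunits below 0, and none fell. The subunits usual in most tissues had small changes: -0.18 ± 0.13 for Cox4i1, -0.06 ± 0.11 for Cox6a1, -0.18 ± 0.13 for Cox6b1, -0.21 ± 0.13 for Cox8a and -0.27 ± 0.18 for Ndufa4, none of which passed. With centred arrays the changes of Cox4i1, Cox6a1 and Cox6b1 were 0.10, 0.28 and 0.12. Cox7a2 (-0.36 ± 0.14) and Cox7a2l (-0.41 ± 0.17) passed with the replicate block (adjusted p = 0.0202 and 0.0206) and not without it (0.0731 and 0.11). Of 12 alternatives, they passed in 6 and in 3. Of the 19 genes, 9 had a mean log2 signal under 9, and the median of the 10 brighter ones was -0.18. The dim ones are mostly isoforms known from other tissues.

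Cox8c, known as the testis isoform of a small subunit of complex IV, was the one that rose. Its log2 value was 6.89, 6.70 and 7.27 in control cells and 6.93, 7.32 and 7.49 in ΔTrspM cells. After LPS it was 8.22, 8.66 and 8.52 in control cells and 8.40, 8.60 and 8.55 in ΔTrspM cells. The unstimulated and LPS arrays did not overlap. It rose by 1.39 ± 0.16 (adjusted p = 6.79e-05), its second probe set had a change of 1.14, and without scaling between arrays the call was lost (0.55, adjusted p = 0.288). The 4 testis markers listed were all measured, summed to 69 to 188 units on the 12 arrays, and none was called for LPS.

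The other tissue isoforms did not pass. Changes were 0.44 ± 0.19 for Cox6a2 (adjusted p = 0.117), 0.50 ± 0.34 for the hypoxia-linked Ndufa4l2, 0.27 ± 0.37 for Cox8b, 0.08 ± 0.37 for Cox7a1, 0.15 ± 0.25 for Cox7b2 and -0.48 ± 0.47 for Cox6b2. Cox7b2 lay under 16 units on 9 of 12 arrays and Cox8b on 7, so these values are near the floor of the scale.

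In complex V, the ATP synthase, the median was -0.27, 15 of 17 subunits were below 0, 2 fell and 4 fell with the replicate block. Atp5c1, the central stalk subunit γ, was at 13.17, 13.02 and 13.27 in control cells and 12.74, 11.99 and 12.89 after LPS, and at 13.28, 13.21 and 13.35 in ΔTrspM cells and 12.77, 12.00 and 12.79 after LPS. The groups did not overlap in either genotype, and it fell by 0.69 ± 0.20 (adjusted p = 0.0215). The 3 genes Atp5g1, Atp5g2 and Atp5g3 encode one and the same membrane ring protein. Of these, Atp5g1 was at 11.47 to 11.83 on unstimulated and 10.88 to 11.40 on LPS arrays and fell by 0.50 ± 0.13 (adjusted p = 0.0149). Atp5g2 had a change of -0.43 ± 0.17 (adjusted p = 0.0776, and 0.0143 with the block), as did Atp5j with -0.41 ± 0.16 (0.0753, and 0.0127 with the block). Atp5g3 had one of -0.13 ± 0.12. The catalytic subunit gene Atp5b had a change of 0.03 ± 0.11. In a fit of all probe sets, a second bright probe set of Atp5h passed lower, at -0.47 (adjusted p = 0.0313), whereas the one used did not (-0.36, 0.174).

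**Figure D4:**
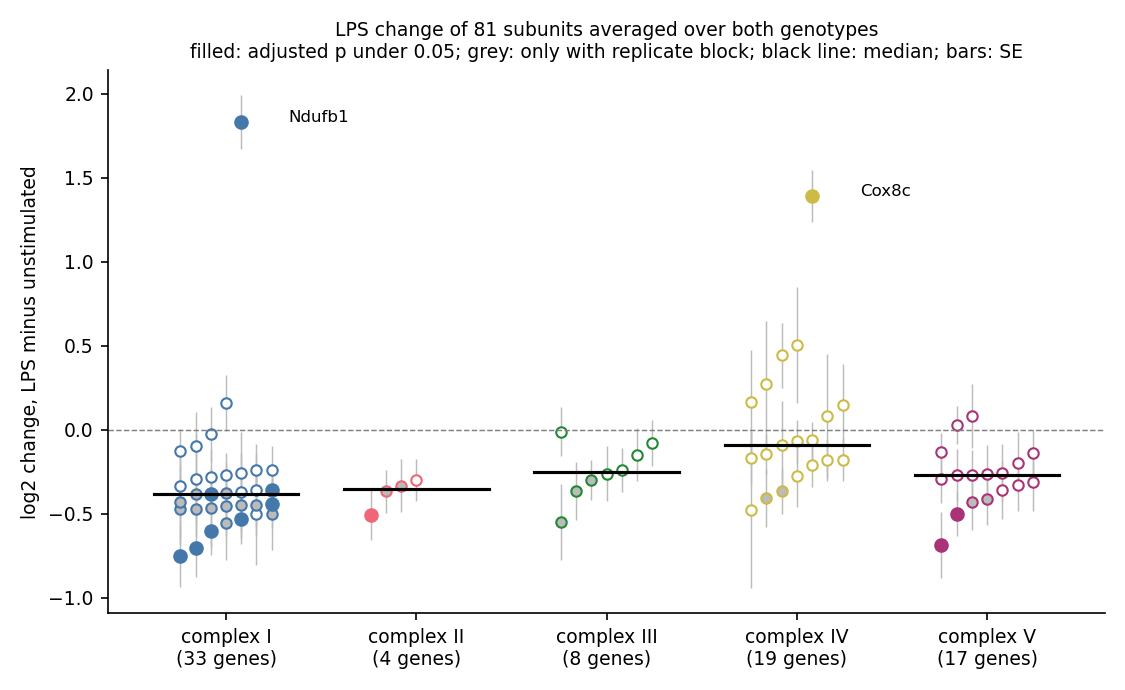
Log2 change with LPS averaged over both genotypes (y axis, ± SE) for each of the 81 subunits by complex (x axis). Filled points passed at an adjusted p under 0.05, grey points passed with the replicate block and not without it, and black lines are medians (-0.38, -0.35, -0.25, -0.09 and -0.27 from left to right).

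Taken in each genotype alone, few subunits passed. In control cells 2 fell, Ndufa8 (-0.81 ± 0.25, adjusted p = 0.0487) and Ndufb9 (-0.71 ± 0.20, adjusted p = 0.0366), against 8.54% of all genes, and Ndufb1 and Cox8c rose (7.09% of all genes). In ΔTrspM cells 0 fell by limma (8.51% of all genes), and the same 2 rose (7.29%). At an unadjusted p under 0.05, 7 were lower in ΔTrspM cells, a count without a share of all genes beside it. With the replicate block 13 fell and 2 rose in control cells (13.4% and 9.15% of all genes), and 2 fell, Atp5c1 and Ndufv2, and 2 rose in ΔTrspM cells (13.2% and 9.28%). The medians were -0.34 in control and -0.27 in ΔTrspM cells, and their distance from all genes depended on scaling. With a trimmed mean they were -0.138 and -0.019, against -0.090 and -0.011 over all genes. With centred arrays they were -0.055 and -0.319, against 0.045 and -0.022.

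**Figure D5:**
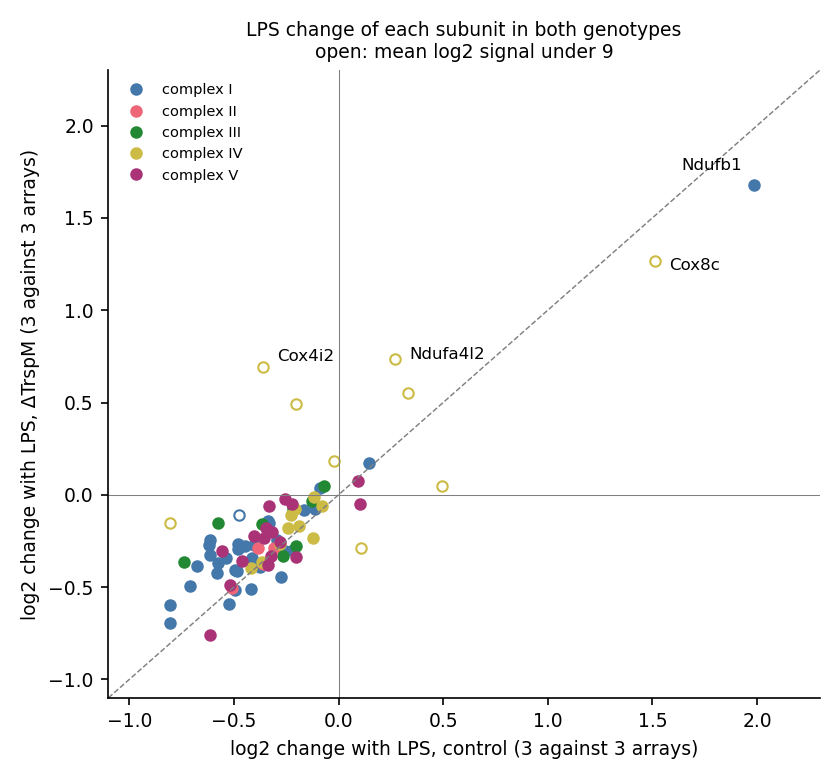
Log2 change with LPS in control (x axis) and ΔTrspM cells (y axis) for each subunit, coloured by complex, with open points for a mean log2 signal under 9. Most points lie in the lower left, and Ndufb1 and Cox8c lie in the upper right.

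The difference between these changes was tested as an interaction, and 0 of 81 subunits passed (0% of all genes, and 0 at an unadjusted p under 0.05). The estimates ran from -0.45 to 1.05 with a median of 0.11, and among the 71 brighter subunits they ran from -0.31 to 0.43. The smallest unadjusted p, 0.115, belonged to Cox4i2, the isoform of subunit 4 known from lung and hypoxia. The median was below 0 without scaling (-0.65), with arrays centred on their medians (-0.24) and without the LPS-stimulated control array of replicate 2 (-0.045).

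No subunit passed the test of ΔTrspM against control cells, without LPS (0% of all genes), with LPS (0.011%) or averaged over both (0.022%). At an unadjusted p under 0.05 there were 0, 1 and 1 subunits, counts without a share of all genes beside them. None passed with the replicate block (lowest adjusted p 0.445). The medians were 0.06, 0.15 and 0.09, against 0.04 over all genes in each case. The second turned to -0.68 without scaling and to -0.17 with arrays centred on their medians, the third to -0.35 and -0.043, and the first to -0.028 without scaling and -0.019 without the unstimulated control array of replicate 2. Among the brighter 71 subunits the estimates averaged over both stimuli lay between -0.05 and 0.29, with a typical SE of 0.16. The log2 ratio of the 3′ to the 5′ actin control probe sets was higher in ΔTrspM cells in all 6 pairs, by 0.027 to 0.437. The same difference for the Gapdh control probe sets went both ways, from -0.379 to 0.141. The part of either ratio in these differences was not tested.

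The subunit nearest to the threshold was Cox4i2. It was at 6.25, 6.37 and 5.73 in control cells and 6.29, 6.37 and 6.15 in ΔTrspM cells. After LPS it was at 4.56, 6.76 and 5.94 in control cells and at 6.72, 7.03 and 7.13 in ΔTrspM cells. The control LPS arrays spread wider than the ΔTrspM ones, and the first of them was near the floor. Its difference with LPS was 1.21 (unadjusted p = 0.018, adjusted p = 0.783). In single pairs, 7 subunits (Atp5g1, Atp5g2, Atp5g3, Cox4i2, Ndufb10, Ndufc2 and Uqcr10), or 8.64%, were higher in ΔTrspM cells in all 6, against 4.85% of all genes. Of these, Uqcr10 had the largest bright difference after LPS, at 0.48, with log2 values of 11.43, 10.88 and 11.18 in control cells and 11.98, 11.24 and 11.73 in ΔTrspM cells. Other bright probe sets of Uqcr10 had smaller differences after LPS, of 0.15 and 0.08.

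The bright subunits moved together from array to array. Over the 12 arrays, the correlation of a subunit with the mean of the other members had a median of 0.89 among the 71 brighter subunits, of which 53 were over 0.8, and of -0.22 among the 10 subunits under a mean log2 signal of 9. The arrays share their groups and their scaling, so this is a description. Ndufb1 was the lowest of the bright ones (-0.50). Of the other genes, Lrwd1, Yipf1, Psmb1, Lrrc40 and Ebp followed the mean of the subunits most closely, with r from 0.980 to 0.987.

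Genes that build or serve the complexes were taken from lists of known roles, and their counts stand beside 16.5% of all genes called lower and 11.8% called higher. Of 45 assembly factors measured, 18 fell and 1 rose with LPS over both genotypes (40.0% lower, median -0.38), among them the complex IV factor Coa6 (-1.54 ± 0.23) and the complex II factors Sdhaf1 (-1.33 ± 0.17) and Sdhaf3 (-1.20 ± 0.16). Sdhaf1 was at 8.92, 9.20 and 9.41 in control cells and 7.56, 7.33 and 8.04 after LPS. Sdhaf3 was at 9.21, 9.15 and 9.08, and at 7.92, 7.58 and 8.11 after LPS. The LPS arrays of both were lower without overlap. Of 76 genes of the mitochondrial ribosome 28 fell and 1 rose (36.8% lower, median -0.35), with Mrpl49 at -1.55 ± 0.18, Mrpl18 at -1.48 ± 0.22 and Mrpl51 at -1.15 ± 0.20. Of 54 genes matching the cytosolic ribosome symbols, which include kinases such as Rps6ka3, 4 fell and 2 rose (7.41% lower, median -0.12), with Rps6ka3 at -0.87 ± 0.15, Rpl12 at -1.70 ± 0.24 and Rpl39 at 0.85 ± 0.18.

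Among 15 regulators of mitochondrial genes 5 fell and 2 rose (33.3% and 13.3%, against 16.5% and 11.8% of all genes). The mitochondrial transcription factor Tfb2m fell by 1.39 ± 0.16 and the mitochondrial DNA helicase Twnk fell by 1.96 ± 0.29, whereas Gabpb1, a subunit of the GABP factor, rose by 1.40 ± 0.20, from 8.71, 8.61 and 8.17 to 9.95, 10.74 and 10.06 in control cells. Of 15 genes of the citric acid cycle and pyruvate dehydrogenase 7 fell and 1 rose (46.7% lower, median -0.37), led by the isocitrate dehydrogenase subunits Idh3a (-0.79 ± 0.13) and Idh3b (-0.51 ± 0.12) and by Pdha1 (-0.44 ± 0.12). Of 12 genes of ubiquinone synthesis 2 fell, Coq10a (-1.57 ± 0.25) and Coq9 (-0.71 ± 0.19), a share of 16.7% that is near that of all genes. Of 20 glycolytic genes 4 rose and 2 fell (20% and 10%, median 0.12), with Pfkfb3, which makes the activator of phosphofructokinase, at 2.31 ± 0.31, Pfkp at 0.66 ± 0.15 and the glucose transporter Slc2a3 at -1.72 ± 0.37. Of subunits named outside the symbol families 5 were measured and none passed, with Atpif1 at -0.52 ± 0.20, Cyc1 at -0.42 ± 0.15 and Ndufab1 at -0.37 ± 0.14, and 3 of these 5 fell with the replicate block.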

How the data were processed

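Total RNA of the 12 cultures was extracted with Trizol, labelled with biotin by in vitro transcription and hybridised to Affymetrix mouse genome arrays. The authors deposited 1 signal intensity per probe set and array on a linear scale, and how probes were summarized is not given in the sources used. Of 45101 probe sets, 64 controls were left out, 34945 had 1 gene symbol, 932 several and 9160 none in the platform annotation. No column of the deposited table was left unused. The brightest probe set of each gene (mean over the arrays) was kept, which gave 18193 genes. Intensities were quantile normalized, 16 was added, and log2 values were fitted with limma 3.58.1 in R 4.3.3 as 4 group means (8 residual degrees of freedom), with Benjamini-Hochberg adjustment over all genes and a threshold of 0.05. The scripts were tested on simulated data.

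Replicate numbers paired the arrays: deviations from the group means correlated in 12 of 12 same-number pairs of arrays (r = 0.126 to 0.442, above the limit of 0.1), so the fit with the number as a block is given where it changes a call. The source of the shared numbers is not stated beyond the labels. The members and gene lists were chosen with earlier results of these data known. Named genes were those with the smallest p-values for LPS and genotype in each complex, the largest changes, the isoform sets and up to 3 genes of each other list, and further members and Cpsf2 were named after their values were seen. Alternatives covered probe set choice, dim genes, scaling, pseudocount, arrays in the fit, variance model, block, the plain t-test and leaving out each array. The number of arrays limits the precision.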

Additional observations from a re-analysis of the deposited data

Results flagged for a closer look

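Cox6c, a subunit of complex IV, was lower in ΔTrspM than in control cells in all 3 pairs of unstimulated arrays and higher in all 3 pairs after LPS. The 2 differences were 0.129 apart on the log2 scale. This opposite direction is what set the gene apart, and the interaction did not pass (limma, unadjusted p = 0.59).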

How the results depend on the processing

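Counts here are out of 81 subunits. Exceptions are all probe sets (164), a mean log2 signal of 6 or above (76) and one of 11 or above (67). Shares of all genes are given above for the main fit and the block only, so the other counts have no background beside them. For LPS over both genotypes, the 10 falls became 16 with all probe sets counted, 17 with genes of mean log2 signal 6 or above, 24 at 11 or above and 18 with a pseudocount of 64. They became 20 with limma's trend and robust options, 30 with the replicate block, 23 with the block and no LPS-stimulated ΔTrspM replicate 2, and 5 with the block and no replicate 2. They became 2 without scaling, 1 with centred arrays, 2 with a trimmed mean, and 5 to 14 without 1 array. The 2 rises became 6 with all probe sets, 0 without scaling and 0 at 11 or above, where Ndufb1 and Cox8c are left out by construction, and 2 to 3 without 1 array. In control cells the 2 falls became 6 at 6 or above, 11 at 11 or above, 7 with a pseudocount of 64, 7 with trend and robust options, 13 with the block (also without LPS-stimulated ΔTrspM replicate 2) and 1 with the plain t-test. They became 0 with a pseudocount of 1, under each of the 3 other scalings, with the block and no replicate 2, and with only the arrays compared, and 0 to 4 without 1 array. The 2 rises in either genotype became 0 without scaling and 0 at 11 or above. In ΔTrspM cells the 0 falls became 1 with all probe sets, 2 without scaling, 1 with centred arrays, 2 with a pseudocount of 64, 1 with trend and robust options, 2 with the block and 5 at 11 or above, and 0 to 1 without 1 array. The cause of these shifts was not tested.

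The median genotype difference turned below 0 without scaling, to -0.028 in unstimulated cells, -0.68 with LPS and -0.35 over both, and so did the interaction, at -0.65. With centred arrays it was -0.17 with LPS, -0.043 over both and -0.24 for the interaction. Without 1 array it was -0.019 (without unstimulated control replicate 2) to 0.114 in unstimulated cells, and the interaction was -0.045 (without LPS-stimulated control replicate 2) to 0.235. The median LPS change was below 0 under each alternative run. The limit of 11 and the blocked fit without LPS-stimulated ΔTrspM replicate 2 were chosen after seeing the data. The block changed no call of a genotype difference or interaction.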
